A study of Mus musculus with 8 samples.

Results

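Cohesin is a ring of SMC1A, SMC3 and the kleisin RAD21 that holds DNA strands within it. A STAG protein (STAG1 or STAG2) binds to the kleisin, NIPBL loads the ring onto chromatin, and PDS5A or PDS5B regulates its release and maintenance. The ring keeps sister chromatids together until cell division and extrudes loops of chromatin between CTCF sites. In blood-forming cells it is known for recurrent mutations in myeloid leukaemia, above all in STAG2, and for a role in the balance between self-renewal and differentiation of haematopoietic stem cells (HSC).

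The genes described are the 8 that encode these proteins: Rad21, Smc1a, Smc3, Stag1, Stag2, Nipbl, Pds5a and Pds5b, of 19716 mouse genes with a symbol on the arrays. They were chosen by name, all non-control probes of each being kept, which gave 21 probes of 60 bases. Of these, 5 stood under older names in the files (9030416H16Rik and B230308N11Rik for Pds5a, Aprin for Pds5b). Rad21 had drawn attention because its brightest probe was higher in knockout than in wild-type cells of primary recipients in an earlier look at the same arrays. The comparisons that rest on those primary arrays are therefore given for Rad21 as a description. No test is read from them for Rad21, though its probes stay in the counts over all cohesin probes.

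Expression was read on 8 Agilent mouse arrays labelled with a single dye, in 4 groups of 2 arrays: HSC of wild-type (WT) donors or of donors with a knockout of E47 (KO), recovered from primary or from secondary recipient mice. E47 is a basic helix-loop-helix transcription factor made from the gene Tcf3. The cells were donor-derived and sorted by flow cytometry, and their cDNA was copied by a global PCR before Cy3 labelling. The labels give neither the age or strain of the mice, nor how the knockout was made, nor whether the pair of arrays in a group came from separate sorts. If they did not, the p-values below measure technical spread only. The 4 WT arrays lay on 1 slide, the KO arrays of primary recipients on another and those of secondary recipients on the third, so that slide and genotype cannot be told apart.

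Values are given as levels and as changes. A level is the log2 of a probe's processed signal minus the 75th percentile of its array, so 0 is the signal of a bright probe of that array and a level 1 lower is a signal smaller by a factor of 2. A change is a difference of mean levels relative to the median of the 32775 probes tested, which themselves shifted by 0.31 (KO against WT, primary recipients), 0.41 (the same in secondary recipients), -0.79 (secondary against primary recipients in WT), -0.39 (in KO) and -0.55 (over both genotypes). Levels of different probes cannot be set against each other, since probes bind with different strength.

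The probe sequences show what was read out for the genes on which the results turn. The pair of Smc3 probes is printed because the probes lie close together and gave different results, Smc1a probe 1 because it had the largest change between recipients among the 4 probes seen on every array, and Rad21 probe 1 because it went against the Rad21 probe that drew attention. Probes are numbered from the 5′ end of the gene, with mm8 positions as the files give them. Smc3 probe 1 lies at chr19:53694085-53694144 and Smc3 probe 2 at chr19:53695308-53697171, both on the plus strand. The span of Smc3 probe 2 is wider than its 60 bases, so that it joins separate stretches of the gene. Smc1a probe 1 lies at chrX:147387461-147387520 on the plus strand and Rad21 probe 1 at chr15:51794260-51794319 on the minus strand. All 4 are given 5′ to 3′.
Smc3 probe 1: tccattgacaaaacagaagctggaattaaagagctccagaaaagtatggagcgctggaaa
Smc3 probe 2: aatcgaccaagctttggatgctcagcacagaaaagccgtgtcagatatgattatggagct
Smc1a probe 1: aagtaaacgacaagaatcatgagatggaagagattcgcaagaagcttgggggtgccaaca
Rad21 probe 1: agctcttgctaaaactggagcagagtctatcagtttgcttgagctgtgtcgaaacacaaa

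How many cohesin probes could be measured differed between arrays. In WT cells of primary recipients, 12 and 5 of the 21 probes were well above background on the 2 arrays, and in KO cells of primary recipients 11 and 5. In secondary recipients the numbers were 17 and 18 for WT and 21 and 12 for KO. As a share of the 21 probes, the primary arrays gave 23.8% to 57.1%, against 35.1% to 73.4% of all probes on the same arrays. In secondary recipients the cohesin share was 57.1% to 100%, against 74.3% to 90.6%. Replicate 2 of both primary groups was dim: the 75th percentile of its signal was 36.6 (WT) and 19.6 (KO), against 320.7 to 847 on the other 6 arrays. No spot was saturated.

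**Figure D1:**
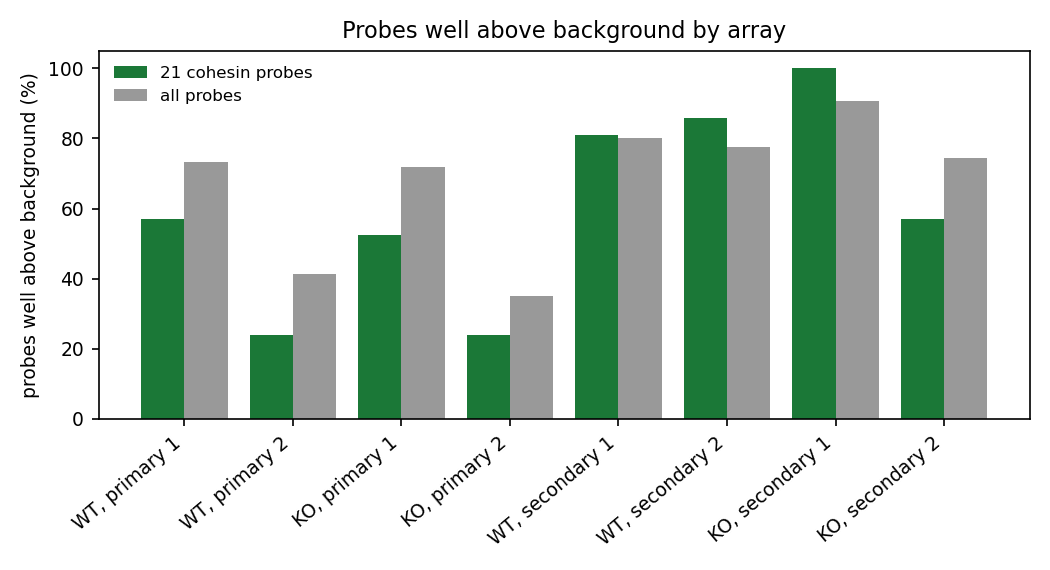
Share of probes well above background on each of the 8 arrays (%), for the 21 cohesin probes (green) and for all probes (grey). The cohesin share lies below the share of all probes on the 4 primary arrays and on replicate 2 of KO secondary, and above it on the other 3 secondary arrays.

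A probe entered the test if both arrays of some group showed it well above background. This left 18 of the 21 probes and all 8 genes; Nipbl probe 1 and Pds5a probes 2 and 3 were not tested. Of the 18, 12 passed only through the secondary groups, which favours higher levels there without fixing the direction. They are Smc3 probe 1, the 4 Stag1 probes, Stag2 probes 2 and 3, both tested Nipbl probes, Pds5a probe 1 and both Pds5b probes. For them no test between recipients is read below, and a level is only a bound on any array that did not read the probe clearly over background, with no order against other such levels. The lowest level that counted as well above background was -2.11 and -1.17 on the dim arrays (WT and KO) and -6.47 to -4.99 on the other 6.

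The labelled cell type and the targeted gene were checked first. All 9 HSC markers read here (Kit, Ly6a, Slamf1, Procr, Hlf, Mecom, Meis1, Fgd5, Cd34) were well above background on 6 arrays; on the dim arrays 3 (WT) and 5 (KO) were. Of 10 neutrophil and monocyte markers, 9 or 10 were above background on each primary array and 7 to 9 on each secondary array. Their summed signal, in multiples of the array's 75th percentile, was 230.1 to 16120 on the primary arrays and 6.46 to 25.5 on the secondary arrays. In primary recipients Tcf3 had levels of -1.61 and 5.20 for WT, with -2.08 and 2.39 for KO. In secondary recipients its levels were 1.07 and 1.28 for WT, with 1.32 and -1.34 for KO. The groups overlapped in both recipients; the labels do not say whether this probe lies in the deleted part of the gene, so its level checks nothing about them.

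Among the ring subunits, Smc3 was read by a probe seen in secondary recipients alone and by another seen on every array. On no primary array was Smc3 probe 1 well above background, with processed signals of 4.54 and 1.81 for WT and 2.59 and 1.95 for KO. In secondary recipients its signals were 1039 and 1064 for WT and 562 and 590 for KO. As levels, the secondary arrays stood at 0.29 and 0.54 (WT) with -0.24 and 0.47 (KO), and no primary array came near them. Smc3 probe 2 was well above background throughout. Its levels were -1.93 and -1.30 (WT) with -0.90 and 0.03 (KO) in primary recipients and -0.84 and -1.38 (WT) with -0.27 and -2.57 (KO) in secondary recipients. For this second probe, primary and secondary arrays overlapped throughout.

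Smc1a, the partner of Smc3 in the ring, was well above background on all 8 arrays with both of its probes. Smc1a probe 1 had levels of -3.26 and -0.65 (WT) with -2.72 and -0.10 (KO) in primary recipients. In secondary recipients it stood at 1.33 and 2.08 (WT) with 1.56 and 2.22 (KO). Its processed signals were 18.0 to 53.7 on the primary arrays and 1958 to 3097 on the secondary arrays. Smc1a probe 2, 15139 bases further 3′ (chrX:147402600-147402659), had levels of 2.30 and 1.31 (WT) with 2.96 and -0.37 (KO) in primary and 1.82 and 1.19 (WT) with 1.14 and -0.65 (KO) in secondary recipients. The lowest level of that probe in either kind of recipient was on replicate 2 of KO.

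Rad21, the kleisin that closes the ring, gave opposite pictures with its probes. Rad21 probe 2 (chr15:51792854-51792913) had levels in primary recipients of -3.25 and -4.15 for WT against 0.64 and 2.17 for KO, the WT value of -4.15 not being well above background. In secondary recipients its 4 levels lay close together, at -0.23 and 0.15 for WT and -0.20 and -0.01 for KO. The order of the group means was KO primary, WT secondary, KO secondary and WT primary, and the middle pair did not differ beyond their spread. Rad21 probe 1, 1406 bases further 5′, had levels of -3.47 and -0.12 (WT) with -2.41 and -3.35 (KO) in primary recipients. In secondary recipients it gave -6.02 and -1.47 (WT) with -1.40 and -5.72 (KO). With this probe WT and KO overlapped in both kinds of recipient, and replicate 2 of KO was not well above background in either.

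**Figure D2:**
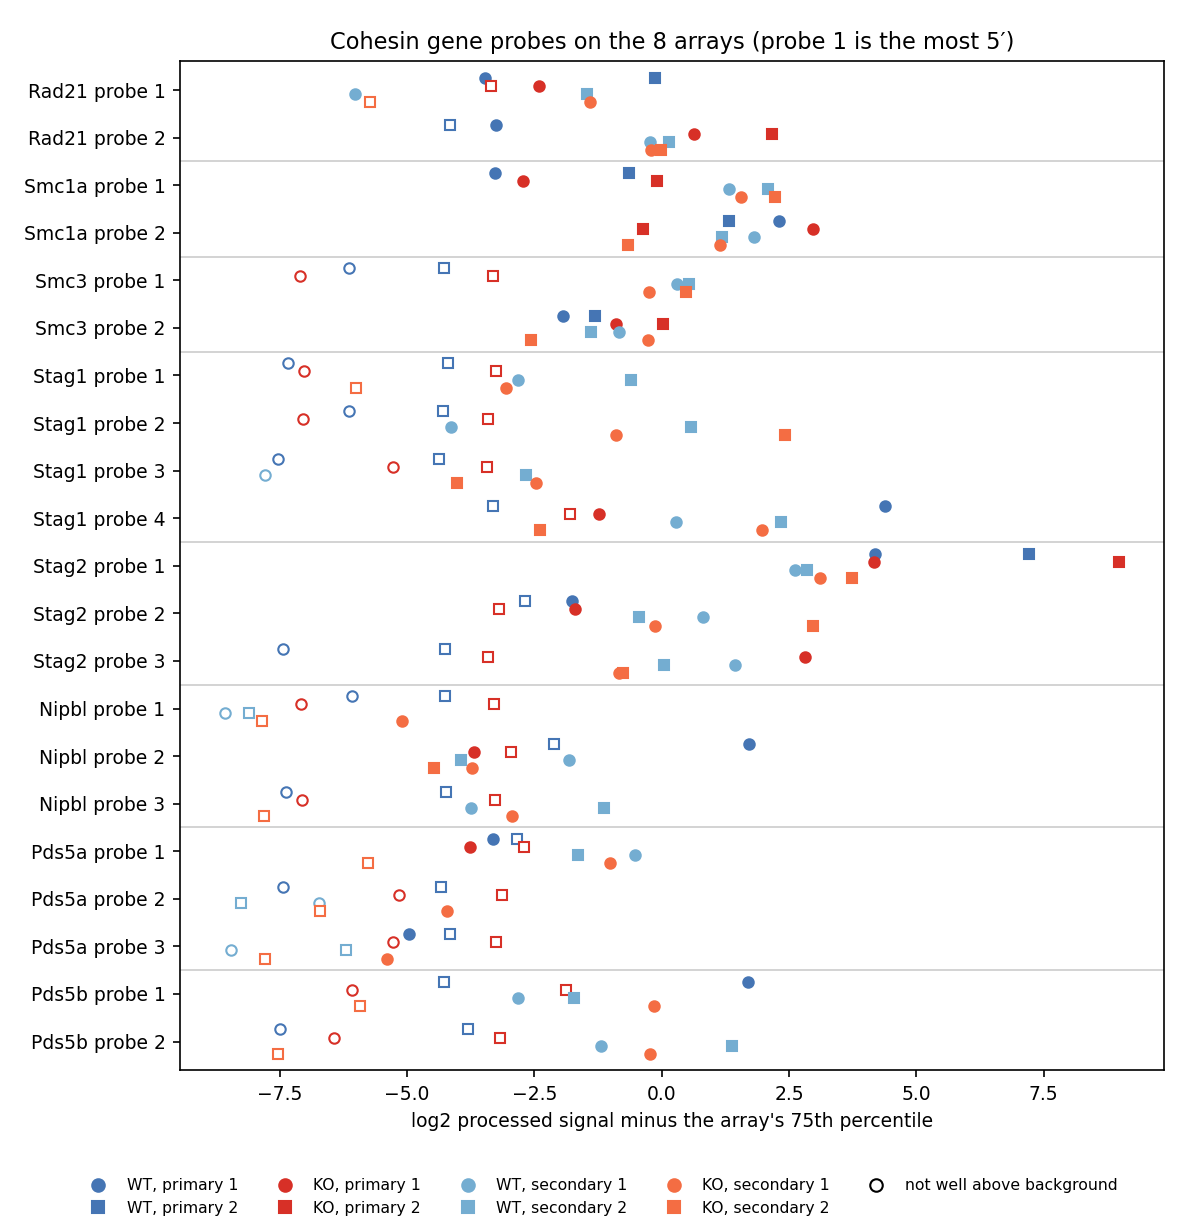
Level of each of the 21 cohesin probes on each of the 8 arrays, as log2 processed signal minus the array's 75th percentile (WT blue, KO red; darker for primary and lighter for secondary recipients; circles replicate 1, squares replicate 2; open symbols not well above background). Smc3 probe 1 lies between -7.09 and -3.30 with open symbols on the primary arrays and between -0.24 and 0.54 on the secondary arrays, while Smc3 probe 2 overlaps between recipients.

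STAG1 and STAG2 bind the ring in separate versions of the complex. Stag1 had 4 probes on chromosome 9, of which probes 1, 2 and 3 were well above background on no primary array. Stag1 probe 2 (chr9:100766622-100766681) reached levels of -4.13 and 0.57 (WT) with -0.90 and 2.42 (KO) in secondary recipients. Its lowest secondary array thus reached down to the range of the dim primary arrays. Stag1 probe 4, 1016 bases further 3′, was well above background on replicate 1 of both primary groups and had levels of 4.39 and -3.31 (WT) with -1.24 and -1.79 (KO) there. In secondary recipients it gave 0.28 and 2.34 (WT) with 1.98 and -2.39 (KO). Its highest level was on a WT primary array and the other WT primary array was not above background, so no order of the groups holds for it.

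Stag2 was measured by 3 probes on chromosome X. Stag2 probe 1 (chrX:38456579-38456638) had nearly the same processed signal on all 8 arrays, from 5171 to 9748, a highest value 1.89 times the lowest. The other 20 cohesin probes spread by 8.16 to 1895 times between arrays. Because the arrays' 75th percentile varied, the level of Stag2 probe 1 still ran from 4.17 to 8.98 on primary and from 2.61 to 3.74 on secondary arrays, so that its level was highest on the arrays with the lowest 75th percentile. Stag2 probe 2 had levels of -1.76 and -2.69 (WT) with -1.70 and -3.19 (KO) in primary recipients. In secondary recipients its levels were 0.80 and -0.45 (WT) with -0.13 and 2.98 (KO). It entered through secondary groups alone and was not well above background on either dim primary array, so its levels of -2.69 and -3.19 are bounds. Stag2 probe 3 was well above background on 1 primary array, KO replicate 1, at 2.81. Its processed signal was 2483 on that array, 1.83 on the other KO array and 1.85 and 1.84 in WT, so that WT and the second KO array have no order. In secondary recipients it stood at 1.44 and 0.04 (WT) with -0.83 and -0.75 (KO), where both KO arrays lay below both WT arrays.

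Nipbl, the loader, was weakly measured. Nipbl probe 1 was above background on 1 array (KO secondary, replicate 1), and Nipbl probe 3 on 3 secondary arrays. Nipbl probe 2 (chr15:8303265-8303324) had levels of 1.72 and -2.11 (WT) with -3.68 and -2.96 (KO) in primary recipients. Its levels in secondary recipients were -1.83 and -3.93 (WT) with -3.73 and -4.48 (KO). Its highest level was on WT primary replicate 1. Neither dim array, WT at -2.11 nor KO at -2.96, was well above background for it, so the order of WT and KO in primary recipients was measured on replicate 1 alone, and in secondary recipients the genotypes overlapped.

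Of the regulators that bind the ring with WAPL, Pds5a and Pds5b were above background mainly in secondary recipients. Pds5a probe 1 had levels of -3.32 and -2.85 (WT) with -3.76 and -2.70 (KO) in primary and -0.53 and -1.65 (WT) with -1.02 and -5.77 (KO) in secondary recipients. Pds5a probes 2 and 3 were above background on 1 and 2 arrays. Pds5b probe 2 was above background on no primary array and stood at -1.19 and 1.37 (WT) with -0.23 and -7.53 (KO) in secondary recipients. On KO secondary replicate 2, Pds5a probe 1 and both Pds5b probes were among the 9 cohesin probes that were not well above background.

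KO and WT cells of secondary recipients were compared to ask whether the transcripts differ without E47 after serial transplantation; these 4 arrays were not those in which Rad21 was picked. None of the 18 tested cohesin probes passed limma's adjusted p of 0.05, nor did any probe on the array (0.0% of 32775 tested). At an unadjusted p under 0.05 there were 0 of 18, against 5.92% of all probes. The changes ran from -4.38 (Pds5b probe 2) to 2.13 (Stag1 probe 2) with standard errors of 1.07 to 2.58, and their median was -0.94 beside 0 for all probes. Above the median probe lay 4 of 18, all of them Stag1 or Stag2 probes. The lowest limma adjusted p among them was 0.913.

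By gene in secondary recipients, both Rad21 probes were near the median probe, at -0.23 (SE 2.07) and -0.47 (SE 1.07). The change of Smc1a was -0.23 (SE 1.37) and -1.67 (SE 1.40), and that of Smc3 -0.71 (SE 1.46) and -0.72 (SE 1.17) for probes 1 and 2. Of these 6 values of the ring genes, that of Smc1a probe 2 alone exceeded its standard error, and before centring (-1.26) none did. Their shared negative sign depends on the centring: before it, the change was 0.18 for Rad21 probe 1 and 0.18 for Smc1a probe 1. Stag1 gave -3.23, 2.13, 1.58 and -1.93 over its 4 probes, and Stag2 0.28, 0.84 and -1.94 over its 3. Nipbl gave -1.63 and -3.34, Pds5a -2.72, and Pds5b -1.17 and -4.38, with Rad21 probe 1, Stag1 probe 1, Nipbl probe 3, Pds5a probe 1 and both Pds5b probes not well above background on KO replicate 2, nor Stag1 probe 3 on WT replicate 1. KO arrays lay above both WT arrays for Stag2 probe 1 (1 of 18, against 31.9% of all probes) and below them for Smc1a probe 2, Stag1 probe 1 and Stag2 probe 3 (3 of 18, against 13.4%).

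In primary recipients, from which Rad21 was picked, the KO minus WT values are descriptions. Rad21 probe 2 had a change of 4.79 and Rad21 probe 1 of -1.40. Among the probes measured on all 4 primary arrays, Smc3 probe 2 stood at 0.87 and the Smc1a probes at 0.24 and -0.82. Smc3 probe 1 and Stag1 probes 1, 2 and 3 were below background in both genotypes and allow no comparison. No probe on the array passed the adjusted threshold in this comparison (0.0%), although 627 did without WT primary replicate 1. Over both recipients together, 0 of 18 probes passed an unadjusted p under 0.05 (4.59% of all probes), and no probe on the array passed the adjusted threshold (0.0%).

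Secondary and primary recipients were compared to ask how transcripts of cells labelled HSC differ between a first and a further transplantation. The neutrophil and monocyte markers given above were far stronger on primary arrays, so the sorted cells were not shown to be alike. Over both genotypes, 89 of 32775 probes passed limma's adjusted p of 0.05 (0.272%), 87 higher and 2 lower in secondary recipients, and no cohesin probe was among them; with any 1 array left out, 0 probes passed. Of the 4 probes seen on all arrays, Smc1a probe 1 had a change of 4.03 (SE 0.91, limma adjusted p = 0.165, n = 4 against 4). Its change was 4.45 (SE 1.37) within WT, whose arrays of both recipients lay on the same slide, and 3.69 (SE 1.37) within KO. Stag2 probe 1 had a change of -2.51 (SE 1.16, limma adjusted p = 0.264), which came to -0.81 without replicate 2 of both primary groups and -0.71 with quantile normalization. Smc1a probe 2 stood at -0.13 (SE 0.93) and Smc3 probe 2 at 0.31 (SE 0.81). Rad21 is a description here, at -0.76 (probe 1) and 1.63 (probe 2).

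The probes that entered through secondary groups alone are given as bounds, with no test read from them. Smc3 probe 1 was at least 12.4-fold higher in secondary recipients over both genotypes, at least 16.8-fold within WT and at least 9.15-fold within KO. This bound sets the bright group's mean level against a mean over the arrays of the other group. That mean takes, on each array, the higher of the probe's own level and the lowest level counted as well above background. The measured means were 0.27 and -5.20. The bound is not strict, because a probe slightly above that lowest level can also fail to count. Rad21 probe 1 did so at -5.72 on KO secondary replicate 2, where the lowest counted level was -5.78. With another background correction (normexp), the log2 changes of Smc3 probe 1 were smaller, at 2.85 in WT and 2.29 in KO. When every probe with a value was tested without the detection filter, the limma adjusted p of Smc3 probe 1 was 0.0845, not past the threshold. No test is read from that value either. The probe is singled out here for its high secondary levels, and no primary array read it well above background.

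By the same bound, Stag1 probe 2 was at least 7.24-fold higher in secondary recipients over both genotypes, with measured means of -0.51 and -5.23. Within WT, and by that bound, Stag2 probe 3 was at least 21-fold and Pds5b probe 2 at least 13.4-fold higher in secondary recipients. In KO, Stag2 probe 3 was higher on 1 primary array (2.81) than on the secondary arrays (-0.83 and -0.75). Pds5b probe 2 was well above background on 1 KO secondary array.

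**Figure D3:**
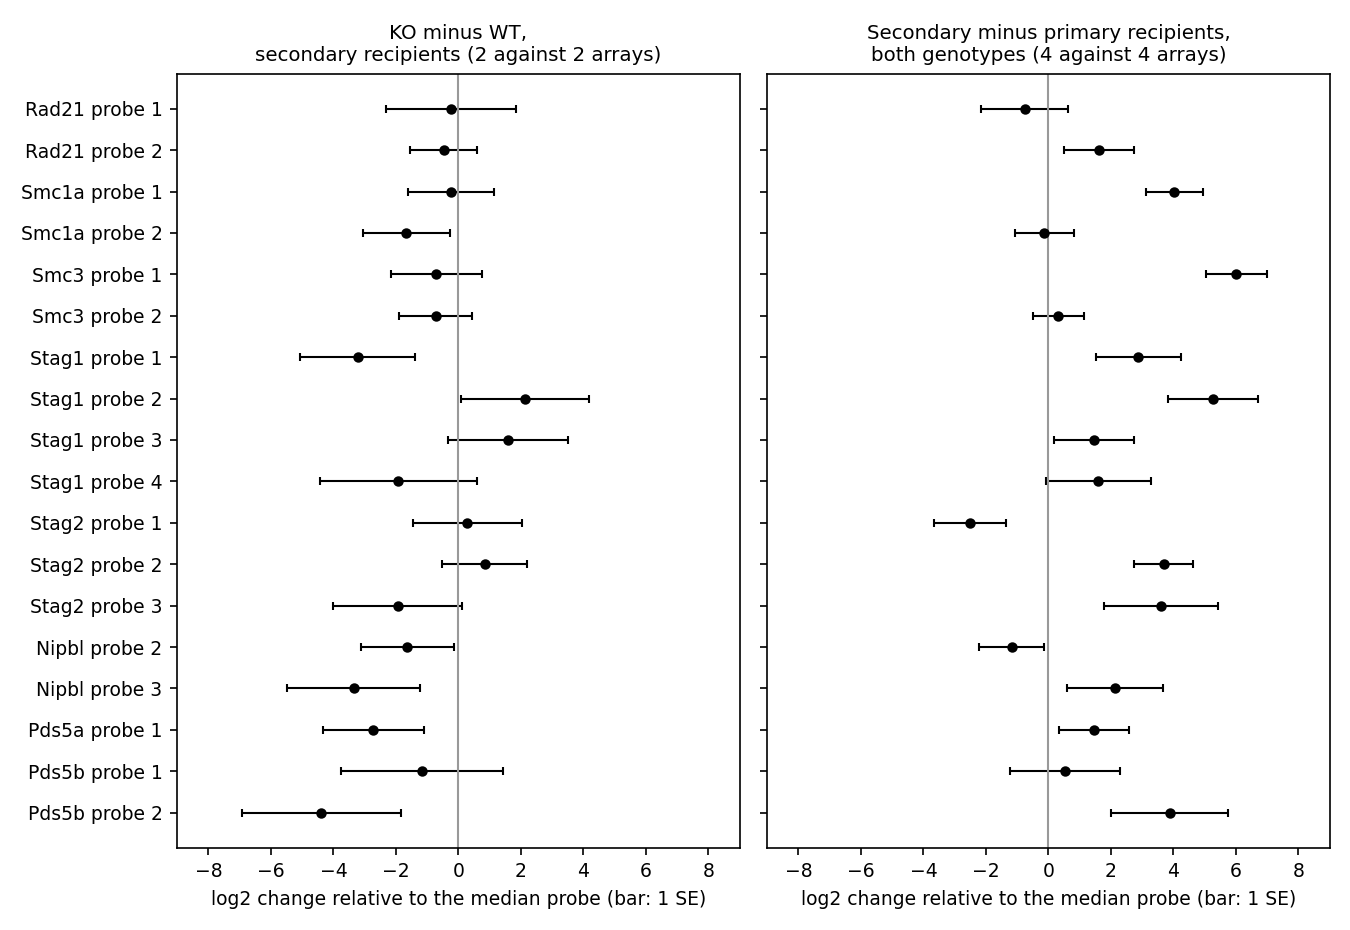
Change of the 18 tested cohesin probes as log2 difference relative to the median probe, with bars of 1 standard error, for KO minus WT in secondary recipients (left, 2 against 2 arrays) and for secondary minus primary recipients over both genotypes (right, 4 against 4). Of the 18, 12 entered through secondary groups alone, and their values on the right are no measured sizes. On the left the changes lie between -4.38 and 2.13 with wide bars; on the right Smc3 probe 1 lies highest at 6.01, and Smc3 probe 2 at 0.31.

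Within neither genotype did a cohesin probe pass limma's adjusted threshold between recipients, nor did any probe on the array (0.0% in WT and 0.0% in KO). The WT and KO differences were not shown to be unequal: in limma's interaction of genotype and recipient the lowest adjusted p of a cohesin probe was 0.993, and no probe on the array passed (0.0%).

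Markers of other cells moved with the same comparison. All 10 neutrophil and monocyte markers lay below the median probe in secondary recipients, with a median change of -9.73, 2 of them past limma's adjusted p of 0.05. Of the 9 HSC markers 7 lay above it (median 2.31, 1 past the threshold), and their summed signal, in multiples of the 75th percentile, was 8.44 to 1255 on primary and 42.6 to 64.4 on secondary arrays. Of 11 tested genes of dividing cells, 9 lay above it (median 1.13, 0 past the threshold), with the proliferation marker Mki67 at 5.0 (SE 0.89, limma adjusted p = 0.0826). Neither dim primary array read Mki67, Cdk1 or Mcm3 of this list, or Procr, Hlf or Mecom of the HSC markers, well above background. Such genes entered through secondary groups alone, which favours higher levels there. Conversely, S100a8 and Lcn2 of the neutrophil markers entered through primary groups alone, which favours lower levels in secondary recipients. The neutrophil, HSC and dividing-cell values between recipients are therefore descriptions. The part of these markers in the values of Smc3, Smc1a, Stag1 and Stag2 was not tested. In a sorted bulk sample, fewer cells of a type and less RNA per cell cannot be told apart.

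The difference between recipients depended on which probe of a gene was read. For Smc1a, with both probes measured on all arrays, the change was 4.03 with probe 1 and -0.13 with probe 2, a difference of 4.16. For Smc3 it was at least 12.4-fold with probe 1 by the bound above, which is taken before centring. With probe 2 the log2 change was 0.31, or -0.24 before centring. The start of probe 2 lies 1223 bases further 3′. The end probes of the other genes were not both measured on all arrays, and no difference is given for them.

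Over the 936 genes whose 5′-most and 3′-most probes were both above background on all 8 arrays, the 5′ probe had the higher change in 52.7%. The absolute difference had a median of 0.91 and a 90th percentile of 2.41, and 1.28% of these genes had a larger one than Smc1a. Across the 8 arrays, the levels of the end probes correlated with a median r of 0.43 over these genes, against -0.64 for Smc1a. These are descriptions over 8 arrays that share amplification and, in part, slides.

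**Figure D4:**
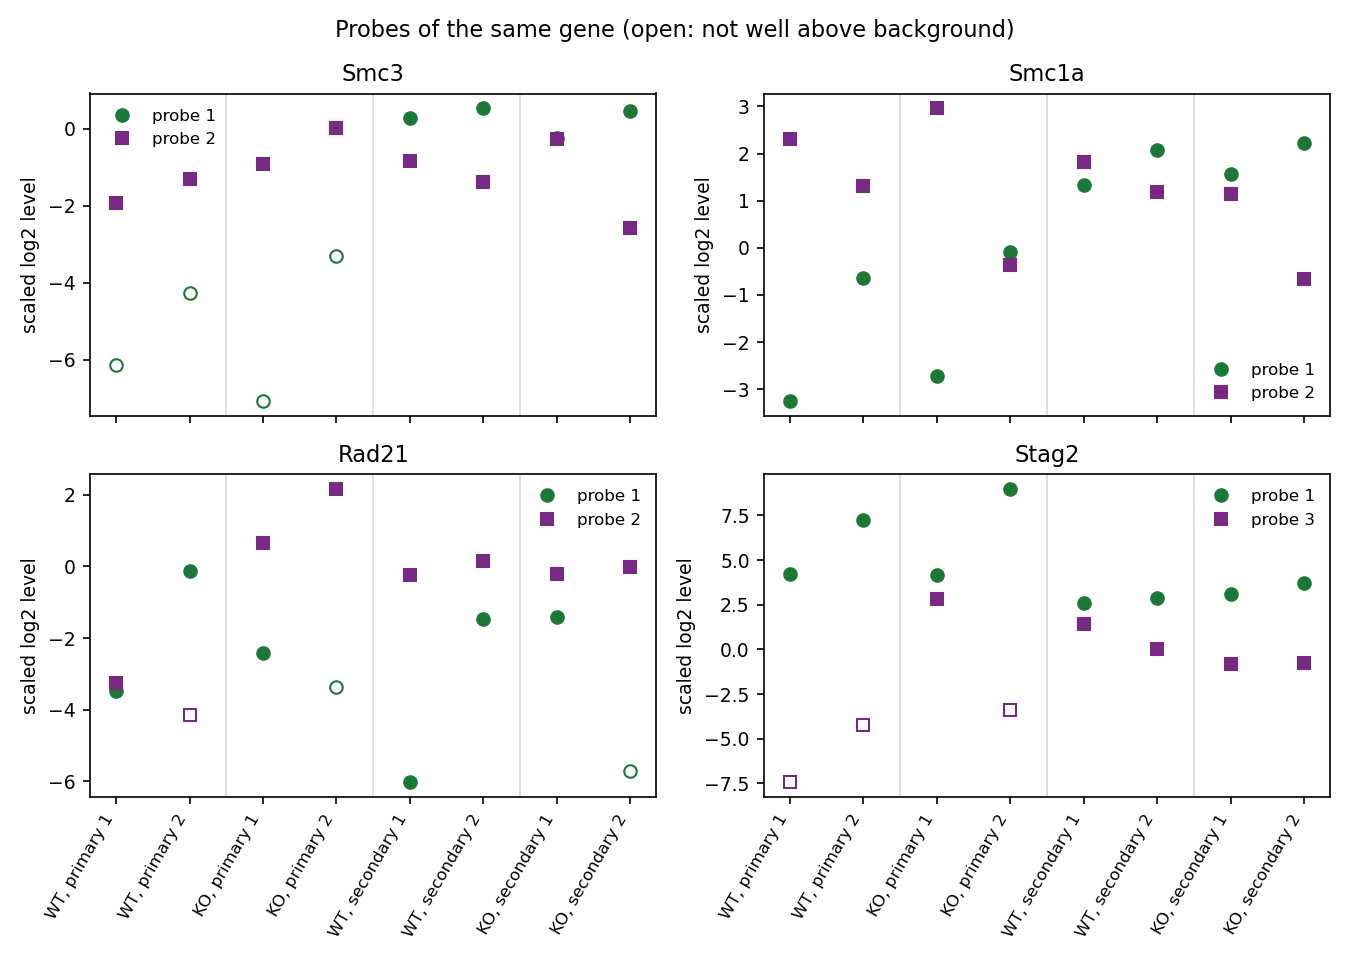
Levels (log2 processed signal minus the array's 75th percentile) of the 5′-most (green circles) and 3′-most (purple squares) probes of Smc3, Smc1a, Rad21 and Stag2 on the 8 arrays; open symbols are not well above background. In Smc3 and Smc1a the 5′ probe is higher on all secondary arrays than on all primary arrays, and the 3′ probe is not. How many of all probes separate the recipients in this way is not given.

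Other genes of the cohesin pathway were read by the brightest probe of each. Of 19 regulators and meiotic subunits, 18 had a probe and 16 were tested. Between KO and WT in secondary recipients, 0 of 16 passed limma's adjusted threshold; 4 lay above and 12 below the median probe, with a median of -0.54. Genes of these lists, too, were in part not above background on primary arrays, so their values between recipients are descriptions. Those of lowest p were Wapl, which releases the ring from chromatin, at -4.08 (SE 1.83), the replication-coupled cohesion factor Dscc1 at -2.71 (SE 1.26), the acetyltransferase Esco1, which modifies SMC3, at -3.10 (SE 1.95), and the meiotic subunit Smc1b at 1.32 (SE 1.39). Between recipients over both genotypes, 0 of 16 passed, and 10 lay above and 6 below the median probe (median 0.41). Wapl stood at 4.03 (SE 1.38), the Nipbl partner Mau2 at -2.61 (SE 1.43), the mitotic kinase Plk1 at -1.04 (SE 0.80) and the meiotic kleisin Rec8 at -1.43 (SE 1.27). Wapl had levels of -5.06 to -3.34 on primary arrays, of which 1 was well above background, 0.84 and 1.25 in WT secondary, and 0.29 and -5.53 in KO secondary, so that its KO arrays differed from each other as those of Pds5b did.

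Condensin and the SMC5/6 complex are built on the same type of ring. All 10 genes of that list were tested, and 0 passed limma's adjusted threshold in either comparison. Between KO and WT in secondary recipients 4 lay above and 6 below the median probe (median -0.07), with the kleisin Ncaph at 4.96 (SE 1.57), Ncapg at -2.51 (SE 1.11), Ncapd3 at 1.53 (SE 1.40) and Smc5 at -3.83 (SE 2.59). Between recipients 8 lay above and 2 below (median 1.37), with Smc4 at 3.67 (SE 0.96), Ncapd2 at -1.30 (SE 0.89), Ncapg at 2.10 (SE 0.78) and Smc6 at 2.61 (SE 1.27). The SMC subunit Smc4 had the lowest limma adjusted p of these, 0.227. Neither dim primary array read Smc2, Ncapg, Ncaph, Ncapd3, Smc5 or Smc6 well above background. These genes entered through secondary groups alone, so the counts and values between recipients are descriptions.

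The pattern of Rad21 probe 2 across the 8 arrays was set beside that of other genes as a description. Among 8192 other genes whose brightest probe was well above background on all arrays, those most like Rad21 probe 2 were Zfp58 (r = 0.93), Hnrnpc (0.92), H3f3a (0.91), Aurkaip1 (0.91) and Map2k2 (0.90). The median r over these genes was -0.04. Each of the 5 had its lowest level on a WT primary array, as had Rad21 probe 2, which follows in part from how they were picked. By rank (Spearman) their correlations with it were lower, at 0.43 to 0.74.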

How the data were processed

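The members and gene lists were chosen with earlier results of these data known. Per the file headers, the authors' scanner files hold spot intensities from Agilent Feature Extraction 10.5.1.1, already background-subtracted. In the deposited series matrix each value is a ratio to its array's median; it was 0.999946 to 1.000052 times the scanner values after rescaling and served as an alternative. Outlier spots were left out, spots of a probe averaged, and 41048 of 41174 probes had a value on all arrays. The deposited intensities were taken as log2 and the array's 75th percentile subtracted. Probes that both arrays of some group showed well above background were tested (32775).

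Probes were named by accession (24496), symbol (6234) or synonym (2386) with the RefSeq gene table of GRCm38.p6, used for names only; 8058 stayed unnamed. Probe sequences and mm8 positions are those of the files; no mm8 annotation was used here. Limma 3.58.1 in R 4.3.3 was fitted per probe, over the 4 groups (4 residual degrees of freedom) or additively for genotype and recipient (5), with Benjamini-Hochberg adjustment over all probes. The printed changes are centred on the median probe; p-values refer to the change before centring. The fit was tested on simulated data. All probes of the 8 genes are given; of the regulator and condensin lists, the 4 genes of lowest p; and the 5 genes most like Rad21. Of the HSC markers, 1 is not reported here and stays out of the counts and sums.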

Additional observations from a re-analysis of the deposited data

Results flagged for a closer look

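For Rad21 probe 2, the change between secondary and primary recipients was 4.45 in WT and -1.12 in KO. The KO value minus the WT value was -5.57. Rad21 was picked from the primary arrays that enter here, so no test of this difference is read. Limma's interaction was fitted for this probe as for every tested probe, and is not support. The other Rad21 probe gave -1.15 in WT and -0.29 in KO.

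For Stag2 probe 3, the change between KO and WT came out at 5.23 in primary and -1.94 in secondary recipients, and the secondary value minus the primary value was -7.17. In primary recipients the sign rests on 1 array. KO replicate 1 had a processed signal of 2483, while KO replicate 2 had 1.83 and the WT arrays 1.85 and 1.84, none of them well above background. KO replicate 2 lay above WT in level through its low 75th percentile, so the 2 genotypes have no measured order on that array and the values 5.23 and -7.17 are no measured sizes. Limma's interaction, centred on its own median, had an adjusted p of 0.993.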

How the results depend on the processing

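The number of probes past limma's adjusted threshold between secondary and primary recipients over both genotypes, 89 as reported, was 1 with normexp background correction, 543 with quantile normalization, 866 with the percentile over probes above background on all arrays and 207 with slide as a random block (consensus correlation -0.09). With no scaling, chosen after seeing the data, it was 2190. It was 0 with median centring, no detection filter, only probes above background on all arrays, 1 probe per gene, the replicate block, or without replicate 2 of both primary groups, and 0 to 0 with any 1 array left out. Between KO and WT in primary recipients, 0 as reported, it was 0 to 627 with 1 array left out, 627 without WT primary replicate 1. The other 5 comparisons kept 0 probes under every alternative run. Pairing of the arrays by replicate number was not shown: deviations of same-numbered arrays correlated at -0.04 to 0.15 between groups. Such values do not exclude pairing, and replicate 2 was the dim array of both primary groups. The replicate block changed no call of a cohesin probe. Among the cohesin probes, all between recipients over both genotypes, Smc1a probe 1 passed with the percentile over probes above background on all arrays (adjusted p = 0.0218) and with no scaling (0.00828); under its other alternatives it was 0.0598 to 0.408. Of the probes that entered through secondary groups alone, Smc3 probe 1 (0.0619 as reported) passed with that percentile (0.0106), quantile normalization (0.0113), slide as a random block (0.0487) and no scaling (0.00371), and not with normexp (0.129), median centring (0.0884) or no detection filter (0.0845). Stag1 probe 1 (0.0439), Stag1 probe 2 (0.00891) and Stag2 probe 2 (0.0423), which entered the same way, passed with no scaling. Without scaling the median probe itself shifted by 2.24 between recipients. No result is read from the passes of probes that entered through secondary groups alone, since that entry favours higher levels in secondary recipients. Of 126 cohesin values, 0 to 22 changed sign under an alternative, at most 2 of them among the 58 beyond 1 standard error; none was called. The causes were not tested. With 2 arrays a group, 12 of 18 tested probes were above background on both arrays of no primary group, which limits the comparisons that use those arrays.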
